A study of Mus musculus with 2 samples.

Results

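The 10 genes described here encode the kinases, and the subunits bound to them, that carry an inflammatory signal from a receptor to NF-κB, the interferon regulatory factors and the MAP kinases. They were chosen by gene symbol, with earlier results of these data known, as Tbk1, Ikbke, Chuk, Ikbkb, Ikbkg, Map3k7, Map3k8, Map3k14, Tab1 and Tab2, and all 10 were found among the 55536 mouse genes of the gene tables. Polyadenylated RNA was sequenced from primary macrophages derived from the bone marrow of mice of the C57BL/6J strain, after 120 minutes with the stimulus at 100 ng/ml. One label field calls that stimulus Lipid A, the anchor of bacterial lipopolysaccharide, and other fields call it lipoprotein A, a protein. There was 1 group of 2 libraries, replicates 1 and 2, which cite the same donor record, with sex and age not collected, so the spread between them may be technical. Unstimulated cells were not analysed here, and the values are therefore levels in stimulated cells, with no condition to set them against and no p-value.

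A pair of linked relays works downstream of Toll-like receptors. In the first, ubiquitin chains built by Traf6 recruit the kinase TAK1 (Map3k7) with its partners TAB1 and TAB2 and the IKK complex, in which the catalytic subunits IKKα (Chuk) and IKKβ (Ikbkb) sit on the scaffold NEMO (Ikbkg), and IKKβ then phosphorylates IκBα for destruction so that NF-κB enters the nucleus. In the second, the IKK-related kinases TBK1 (Tbk1) and IKKε (Ikbke) phosphorylate Irf3 and Irf7, which switch on interferon genes. TPL2 (Map3k8) is the macrophage's route to the ERK kinases, and NIK (Map3k14) drives the alternative NF-κB pathway through IKKα.

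Mouse genes held 33272581 and 50266403 estimated counts in replicates 1 and 2. At these depths 3 counts, used here as an approximate upper limit for a gene with 0 counts, were 0.0902 and 0.0597 CPM, counts scaled to library size. All 10 macrophage markers examined were at 1 TPM or more in both libraries and summed to 20379.8 and 26364.3 TPM (a level scaled to transcript length and library size). Most of that sum was Lyz2, at 13517.5 and 19283.1 TPM. Granulocyte markers summed to 563 and 102 TPM, with 5 of 10 at 1 TPM or more in both. Megakaryocyte and platelet markers summed to 933 and 238 TPM, so both sums were higher in replicate 1. The second sum was nearly all Pf4, at 916 and 236 TPM, with Ppbp at 13.9 and 1.55 TPM. The other markers of that list, Itga2b, Gp9 and Gp1bb, were at 2.25, 0.59 and 0.39 TPM in replicate 1 and lower in replicate 2. None of the 5 T cell, 4 NK cell, 4 mast cell and basophil, 4 erythroid or 5 stromal markers reached 1 TPM in both libraries, and Cd8a, Gzma, Prf1, Mcpt4, Tpsb2, Hbb-bs and Alas2 had 0 counts in both. One of 4 B cell markers, Cd79b, and 1 of 5 dendritic cell markers, Ccr7, did. The biological coefficient of variation between the libraries was 21.5% over 12178 genes.

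On the TPM scale the 10 genes ran from near the bottom of the expressed genes to the upper part of their range. Ikbke and Tab2 were the most abundant, at 121 ± 17.5 and 102 ± 6.49 TPM (SD, n = 2, as for every ± below), and their means were above those of 89.8% and 88.1% of the 9897 protein-coding genes that averaged 1 TPM or more. Map3k8, Tbk1 and Ikbkb followed at 64.1 ± 16.3, 55.7 ± 8.33 and 52.7 ± 0.856 TPM. Chuk stood at 19.5 ± 1.10 TPM. Map3k7 stood at 13.0 ± 0.354 TPM and Ikbkg at 13.0 ± 1.95 TPM, near the median of 14.4 TPM of those expressed genes. Map3k14 stood at 7.94 ± 3.56 TPM, and Tab1 came last at 1.26 ± 0.269 TPM, above only 2.68% of them. Both libraries held 8 of the 10 members at 10 TPM or more (80.0%), against 5561 of the 9897 expressed protein-coding genes (56.2%) and of all 22028 (25.2%).

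Neighbours in this order were counted as apart where their libraries did not overlap and the gap between their means exceeded both SDs. Map3k8, Tbk1 and Ikbkb could not be ordered by this rule, nor could Map3k7 and Ikbkg, whose means differed by 0.07 TPM. The other 6 neighbouring pairs were apart, although the closest values of Ikbke and Tab2 were 108 and 107 TPM. In the second quantification the same pairs were apart, and Tbk1 was apart from Ikbkb as well.

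**Figure D1:**
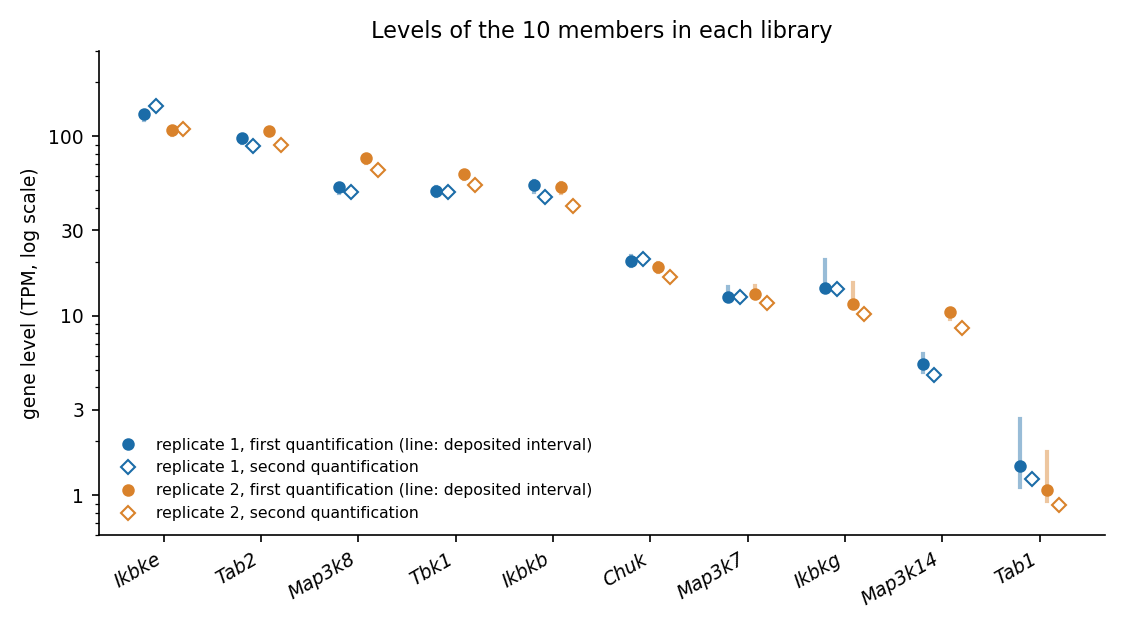
Gene level in TPM on a log axis for each member, ordered by mean, with replicate 1 in blue and replicate 2 in orange. Filled circles are the first quantification with its deposited interval as a line, and open diamonds are the second quantification; Ikbke and Tab2 sit near 100 TPM, Tab1 near 1 TPM, and Map3k14 has the widest gap between libraries.

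Ikbkb encodes IKKβ, the subunit that phosphorylates the IκB proteins. Its level was 53.4 TPM in replicate 1 and 52.1 TPM in replicate 2, from 2991 and 4160 counts, and the deposited intervals were 49.1 to 56.6 and 48.6 to 54.7 TPM. The coefficient of variation between the libraries was 1.62%, while in the second quantification the gene stood at 46.0 and 40.8 TPM. The gene lies at chr8:22659212-22706589 on the minus strand (mm10, as are all coordinates here). Its full-length transcript Ikbkb-201, with 757 codons, held 62.2% and 62.3% of the gene's TPM.

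A further 24.1% and 29.8% of Ikbkb TPM was assigned to Ikbkb-213, a 601-base transcript annotated as non-coding. It shares its first exons, of 56 and 123 bases, with Ikbkb-201 and then reads 422 bases that Ikbkb-201 lacks. These shares came from 92.8 and 165 counts, and in counts the transcript held 3.10% and 3.96% of the gene. The second quantification gave it 21.1% and 26.3% of TPM. The short transcript is thus a large part of Ikbkb in TPM and a small part in reads. TPM corrects counts for transcript length, and how that correction acts on so short a transcript was not tested.

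Chuk encodes IKKα, which shares the IKK complex with IKKβ and is also the kinase that NIK acts on. Its level was 20.3 and 18.8 TPM, from 1403 and 1854 counts, with intervals of 18.9 to 21.7 and 17.5 to 19.7 TPM that overlap between libraries. The gene lies at chr19:44073335-44107480 on the minus strand. Within each library Ikbkb stood above Chuk by a ratio of 2.63 and 2.78 in TPM, and by 1.84 and 1.96 when protein-coding transcripts alone were summed. IKKβ mRNA was the more abundant of the pair in both libraries on each of these scales.

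IKKα and IKKβ are paralogs, with 50.7% identical residues over 738 aligned positions of the proteins translated from Chuk-201 and Ikbkb-201, but the longest run of bases their mRNAs share is 16. Both kinases are switched on by phosphorylation of a pair of serines in the activation segment, the loop beside the active site, at codons 176 and 180 of Chuk and 177 and 181 of Ikbkb. The segments below, from the GENCODE M21 transcripts, are shown because this is the site on which TAK1 and NIK act, and they have the same base at 61 of 81 positions and code for the same residue at 25 of 27 codons. Capitals mark the serine codons. The Chuk segment runs from codon 165 to 191 (chr19:44097319-44097513, minus strand) and the Ikbkb segment from codon 166 to 192 (chr8:22678906-22681734, minus strand), and each range includes an intron.
Chuk-201: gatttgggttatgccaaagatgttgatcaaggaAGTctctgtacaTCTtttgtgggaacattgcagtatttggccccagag
Ikbkb-201: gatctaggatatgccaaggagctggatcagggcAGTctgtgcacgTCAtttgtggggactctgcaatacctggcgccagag

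Chuk RNA was split between a pair of coding transcripts with different ends. Chuk-201 held 64.9% and 66.6% of the gene's TPM and Chuk-202 held 28.8% and 24.1%, from 957 and 1335 counts against 421 and 480. They differ inside the coding sequence by 17 bases at the end of an exon (chr19:44077246-44077262), which Chuk-201 keeps and Chuk-202 leaves out. Among coding transcripts the longer exon end made up 69.3% and 73.4% of TPM, and 72.1% and 74.3% in the second quantification. Most coding Chuk TPM was therefore assigned to the form that keeps these bases, in both libraries and both quantifications.

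The join between these exons is shown in both forms because the 17 bases decide which C-terminus is encoded. Capitals mark the 17 bases, which open with GT, the usual first letters of an intron, and the sequences cover chr19:44075519-44077274 on the minus strand without the intron.
Chuk-201: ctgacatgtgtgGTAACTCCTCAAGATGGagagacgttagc
Chuk-202: ctgacatgtgtgagagacgttagc
Since 17 is not a multiple of 3, the reading frame shifts. Chuk-202 shares the first 697 codons with Chuk-201, then has 22 codons of its own where Chuk-201 has 48, and ends at 719 codons against 745.

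The stretch that Chuk-202 lacks includes the site by which IKKα holds NEMO. In the last 50 codons of Chuk-201 and Ikbkb-201 the longest run of identical residues was 6 codons, at codons 738 to 743 of Chuk and 737 to 742 of Ikbkb, where the NEMO-binding hexapeptide is known to lie. The same run was not found in Chuk-202. It is printed in capitals with the coding bases around it, from chr19:44074514-44075439 for Chuk and chr8:22660427-22661410 for Ikbkb, both on the minus strand and without the intron.
Chuk-201: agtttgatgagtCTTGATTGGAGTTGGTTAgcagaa
Ikbkb-201: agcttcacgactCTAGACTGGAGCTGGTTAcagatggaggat

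Ikbkg encodes NEMO, the ubiquitin-binding scaffold without which IKKα and IKKβ do not respond to Toll-like receptors. Its level was 14.4 and 11.6 TPM, from 1180 and 1339 counts, and the deposited intervals, 14.2 to 20.5 and 11.0 to 15.3 TPM, overlapped. In TPM it stood at 0.195 and 0.163 of Chuk plus Ikbkb, so the scaffold's mRNA was well below the sum of its catalytic partners. The gene lies at chrX:74393290-74453854 on the plus strand, and up to 278 exon bases of its transcripts overlap G6pdx, a more abundant gene of the opposite strand at 132 TPM in both libraries. Whether the counting used strand is not given in the sources used here, so reads in that overlap may belong to either gene.

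Ikbkg has 18 annotated transcripts, of which 3 were above 0 in both libraries in the first quantification. It was the member whose leading transcript differed between the quantifications. Ikbkg-202 led the first quantification with 42.5% and 47.7% of TPM, ahead of Ikbkg-203 with 29.9% and 22.2% and Ikbkg-204 with 7.64% and 6.05%. In the second quantification Ikbkg-203 led with 40.4% and 40.2%, against 36.1% and 38.3% for Ikbkg-202. Several transcripts were above 0 in 1 library alone in the first quantification. Examples are Ikbkg-216 at 0% and 12.5%, Ikbkg-201 at 0% and 9.22%, and Ikbkg-206 at 7.71% and 0%. The second quantification gave them 0% and 0%, 2.26% and 0.611%, and 2.68% and 0%, in that order. With posterior mean TPM all were above 0 in both libraries, at 4.29% and 10.3%, 2.07% and 3.10%, and 2.98% and 1.41%. In the first quantification the 278-base Ikbkg-209 took 7.14% of the gene's TPM in replicate 1 from 1.00 count and none in replicate 2.

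Grouped by where they start, the Ikbkg transcripts were more even. Coding transcripts that begin 35991 to 36473 bases downstream of the gene's first annotated base, Ikbkg-202 and Ikbkg-203 among them, made up 80.1% and 83.2% of coding TPM. Those that begin 31244 to 31348 bases downstream made up 19.4% and 15.4%, and Ikbkg-204 is among them. The transcripts whose exons overlap G6pdx, Ikbkg-204 included, all begin upstream of the main group.

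Ikbkg-202 and Ikbkg-203 encode NEMO proteins of 411 and 412 codons that differ by 1 codon. Ikbkg-203 starts an exon 3 bases earlier (chrX:74437164-74437166), adding codon 134, shown in capitals within the join of the exons at chrX:74434003-74437178 on the plus strand, without the intron.
Ikbkg-203: aaatgccaacagCAGatggctgaggac
Ikbkg-202: aaatgccaacagatggctgaggac
Transcripts with the extra codon made up 54.0% and 51.9% of the TPM of coding transcripts that span the join, and 61.3% and 61.4% in the second quantification. These transcripts also differ in where their last exon ends, so the share is not a measure of the 3 bases alone.

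TBK1 is the kinase that phosphorylates Irf3 once an adaptor such as TRIF has recruited it. Tbk1 stood at 49.8 TPM in replicate 1 and 61.5 TPM in replicate 2, from 2861 and 5093 counts, and the deposited intervals, 46.5 to 52.0 and 57.9 to 63.0 TPM, did not overlap. The gene lies at chr10:121546455-121586787 on the minus strand. Tbk1-201, with 729 codons, held 89.5% and 88.7% of its TPM, and transcripts with a retained intron held 8.08% and 10.6%. In the second quantification Tbk1-201 held 82.8% and 83.9%, and transcripts with a retained intron held 13.1% and 14.1%. The same transcript thus held most of Tbk1 in both libraries and both quantifications.

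IKKε, encoded by Ikbke, is the inducible relative of TBK1. Ikbke stood at 133 TPM in replicate 1 and 108 TPM in replicate 2, from 7302 and 8808 counts, with intervals of 124 to 133 and 102 to 109 TPM. It lies at chr1:131254343-131279606 on the minus strand. Ikbke was above Tbk1 by a ratio of 2.68 in replicate 1 and 1.76 in replicate 2 in TPM, since Ikbke was higher and Tbk1 lower in replicate 1. Their summed level was 183 and 170 TPM, against 73.7 and 70.9 TPM for Chuk plus Ikbkb. The IKK-related pair was therefore the more abundant pair in both libraries.

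The proteins of Tbk1-201 and Ikbke-201 have 47.4% identical residues over 713 aligned positions, and their mRNAs share no run longer than 14 bases. Each has a single serine codon, number 172 in both, at the place where the activation segment is phosphorylated. The segments run from codon 157 to 183 in both genes (chr10:121570783-121571914 for Tbk1 and chr1:131273523-131273712 for Ikbke, minus strand, each range with an intron), and are printed with the serine codon in capitals. They have the same base at 63 of 81 positions and code for the same residue at 23 of 27 codons.
Tbk1-201: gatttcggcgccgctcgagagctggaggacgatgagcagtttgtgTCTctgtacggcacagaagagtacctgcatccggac
Ikbke-201: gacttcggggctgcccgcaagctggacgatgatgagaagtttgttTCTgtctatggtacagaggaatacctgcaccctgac

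Unlike Tbk1, Ikbke was spread over several transcripts. Ikbke-201, with 717 codons, held 59.5% and 61.8% of its TPM, Ikbke-204, with 693 codons, held 16.9% and 16.3%, and Ikbke-205, a short transcript with a retained intron, held 7.09% and 6.14%. All 4 retained-intron transcripts of the gene held 21.2% and 16.6% of TPM, and 31.6% and 28.9% in the second quantification. In counts they held 9.09% and 7.19%. Exons of Ikbke overlap the antisense genes Gm28913 and Gm28914, which had 17 counts or fewer in each library.

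Ikbke-204 begins in a first exon of its own, 2655 bases downstream of the start of Ikbke-201, and leaves out 72 bases at the end of an exon (chr1:131275707-131275778). The loss keeps the reading frame and removes codons 53 to 76, which lie in the N-terminal kinase domain ahead of the activation segment. The join is printed because a shortened kinase domain is what tells these proteins apart, with the 72 bases, which again open with GT, in capitals (chr1:131275268-131275790, minus strand, without the intron).
Ikbke-201: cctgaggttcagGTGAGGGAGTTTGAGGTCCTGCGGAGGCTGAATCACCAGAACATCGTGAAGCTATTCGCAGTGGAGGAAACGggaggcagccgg
Ikbke-204: cctgaggttcagggaggcagccgg
Transcripts with the 72 bases made up 78.5% and 80.5% of coding TPM at this join, and 85.1% and 86.5% in the second quantification. In TPM, Ikbke-204 alone stood at 22.5 and 17.6 in the first quantification and at 15.1 and 10.6 in the second. All Chuk transcripts together stood at 20.3 and 18.8 in the first and 20.8 and 16.4 in the second, so the shorter form was near the level of Chuk in the first quantification and below it in the second.

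**Figure D2:**
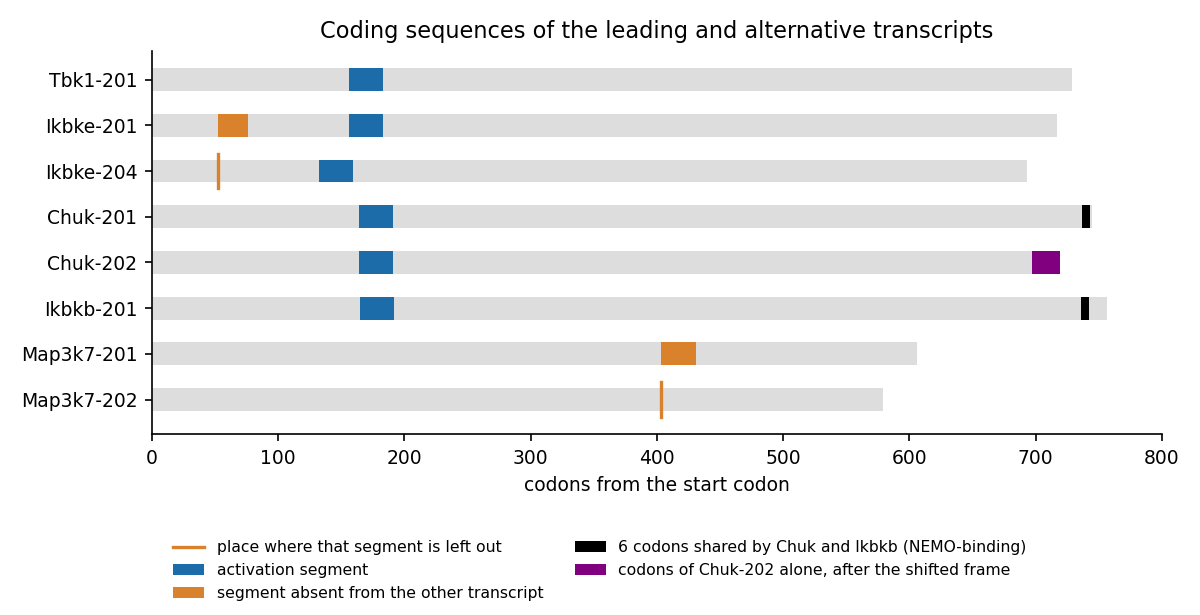
Coding sequences drawn to scale in codons from the start codon, with the activation segment in blue, optional segments in orange, the 6 codons for the NEMO-binding run in black and the codons that Chuk-202 has alone in purple. Ikbke-204 lacks codons 53 to 76, Map3k7-202 lacks the segment at codons 404 to 431, and Chuk-202 ends at codon 719 without the black run seen in Chuk-201 and Ikbkb-201.

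TAK1, encoded by Map3k7, is the kinase above both IKKβ and the MAP kinase kinases. Its level was 12.8 and 13.3 TPM, from 1532 and 2252 counts, with intervals of 12.2 to 14.4 and 12.6 to 14.7 TPM. The gene lies at chr4:31964097-32023467 on the plus strand. A pair of full-length transcripts shared it almost evenly: Map3k7-201 held 49.9% and 47.0% of TPM, and Map3k7-202 held 47.5% and 46.2%. Their levels, 6.38 and 6.24 TPM for Map3k7-201 and 6.07 and 6.14 TPM for Map3k7-202, stood within overlapping deposited intervals in both libraries.

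The pair differs by an 81-base exon (chr4:31994874-31994954, plus strand) that is kept in Map3k7-201, with 606 codons, and skipped in Map3k7-202, with 579. The exon keeps the reading frame and touches codons 404 to 431, between the N-terminal kinase domain and the C-terminal part that binds TAB2. It is printed in capitals with its coding neighbours, whose join covers chr4:31992505-32002100 without the introns.
Map3k7-201: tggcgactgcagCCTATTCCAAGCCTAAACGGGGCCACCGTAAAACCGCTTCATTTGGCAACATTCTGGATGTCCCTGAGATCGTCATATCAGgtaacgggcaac
Map3k7-202: tggcgactgcaggtaacgggcaac
Coding transcripts with the exon made up 51.2% and 50.4% of TPM, and 62.0% and 60.0% in the second quantification. Within each quantification the libraries differed by less than 2 percentage points, which is less than the difference between quantifications.

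**Figure D3:**
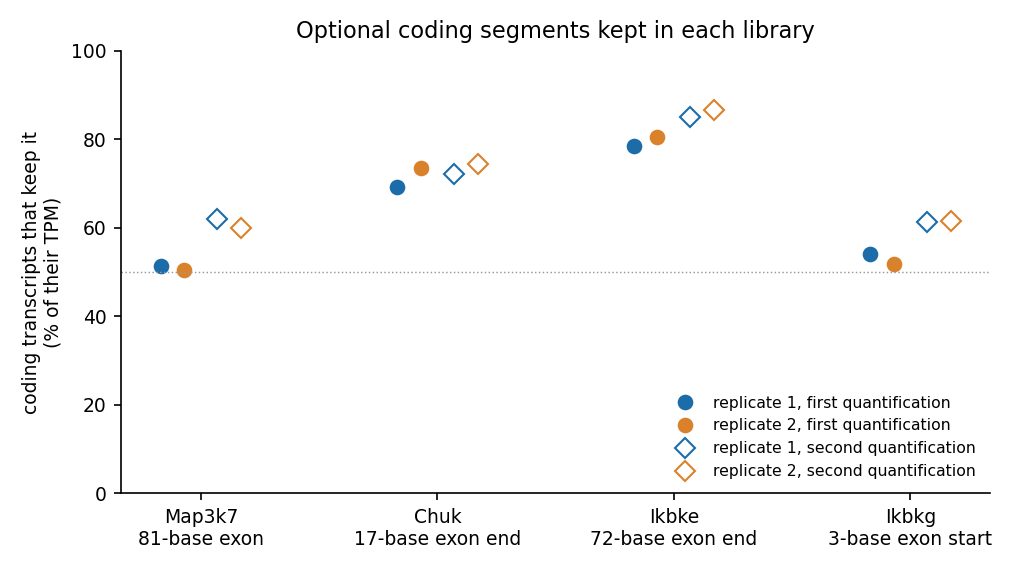
Share of coding transcripts, in percent of their TPM, that keep each optional segment, with replicate 1 in blue and replicate 2 in orange, the first quantification as filled circles and the second as open diamonds. The Map3k7 exon and the Ikbkg codon lie between 50% and 62%, the Chuk exon end between 69.3% and 74.3%, and the Ikbke exon end between 78.5% and 86.5%.

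TAB2, encoded by Tab2, is the adaptor that carries TAK1 to ubiquitin chains. Tab2 stood at 97.9 and 107 TPM, from 8636 and 13808 counts, the most counts of any member. The gene lies at chr10:7905653-7956230 on the minus strand, and Tab2-204 held 93.5% and 92.3% of its TPM. In TPM, Map3k7 was at 0.129 and 0.123 of Tab1 plus Tab2 in replicates 1 and 2. The mRNA of the kinase was thus well below that sum, which is nearly all Tab2. It was above Tab1, which stood at 1.45 and 1.07 TPM.

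TAB1, encoded by Tab1, binds the kinase domain of TAK1 and promotes its autophosphorylation. Tab1 had 66 and 95 counts and stood at 1.45 and 1.07 TPM, with wide intervals of 1.11 to 2.67 and 0.930 to 1.74 TPM. It lies at chr15:80133127-80161707 on the plus strand. Its full-length transcript Tab1-201 stood at 1.06 and 1.07 TPM, and the rest of the gene's TPM in replicate 1, or 27.0%, came from 2.00 counts in the short Tab1-203. Tab2 was above Tab1 by a ratio of 67.5 and 100.04 in TPM, and by 90.3 and 97.6 when coding transcripts alone were summed. Tab3, the paralog of Tab2, named here after its values were seen, stood at 3.16 and 2.50 TPM.

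TPL2, encoded by Map3k8, phosphorylates the kinases MEK1 and MEK2 and is held inactive by the NF-κB precursor p105. Map3k8 stood at 52.6 TPM in replicate 1 and 75.6 TPM in replicate 2, from 2573 and 5487 counts, with intervals of 48.4 to 53.0 and 71.0 to 75.7 TPM that did not overlap. It lies at chr18:4331327-4353015 on the minus strand. Map3k8-201 held 89.1% and 90.5% of its TPM, so both libraries were dominated by the same coding transcript. Map3k8 was the most abundant of the MAP3K genes examined, members and others alike.

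NIK, encoded by Map3k14, is a kinase whose protein is degraded continually in resting cells through Traf3, Traf2 and the cIAP ligases. Map3k14 stood at 5.42 TPM in replicate 1 and 10.5 TPM in replicate 2, from 471 and 1343 counts, with intervals of 4.88 to 6.14 and 9.65 to 10.9 TPM. It lies at chr11:103219762-103267472 on the minus strand, and Map3k14-201 held 95.8% and 96.7% of its TPM. It was the member furthest apart between the libraries. The same-strand gene 1700028N14Rik shares 135 exon bases with it and had at most 1 count in a library.

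The leading transcript held 76.1% of a member's TPM at the median of the 10 genes, and protein-coding transcripts together held 91.0%. The leading transcripts of Ikbke, Ikbkb, Chuk, Map3k7 and Ikbkg fell under that median, and in Chuk, Map3k7 and Ikbkg a second full-length coding transcript took much of the remainder. In Ikbke the retained-intron transcripts averaged 18.9% of TPM and Ikbke-204 averaged 16.6%, and 30.2% and 9.90% in the second quantification. The mean coding share was lowest in Ikbkb, at 65.6% and 63.8% in replicates 1 and 2, followed by Ikbke, at 78.8% and 83.4%, and by Tab1, at 73.0% and 100%. With posterior mean TPM the mean coding share of Tab1, 68.0%, was below the 81.0% of Ikbke. Both quantifications named the same leading transcript in 9 of the 10 genes, Ikbkg being the exception.

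**Figure D4:**
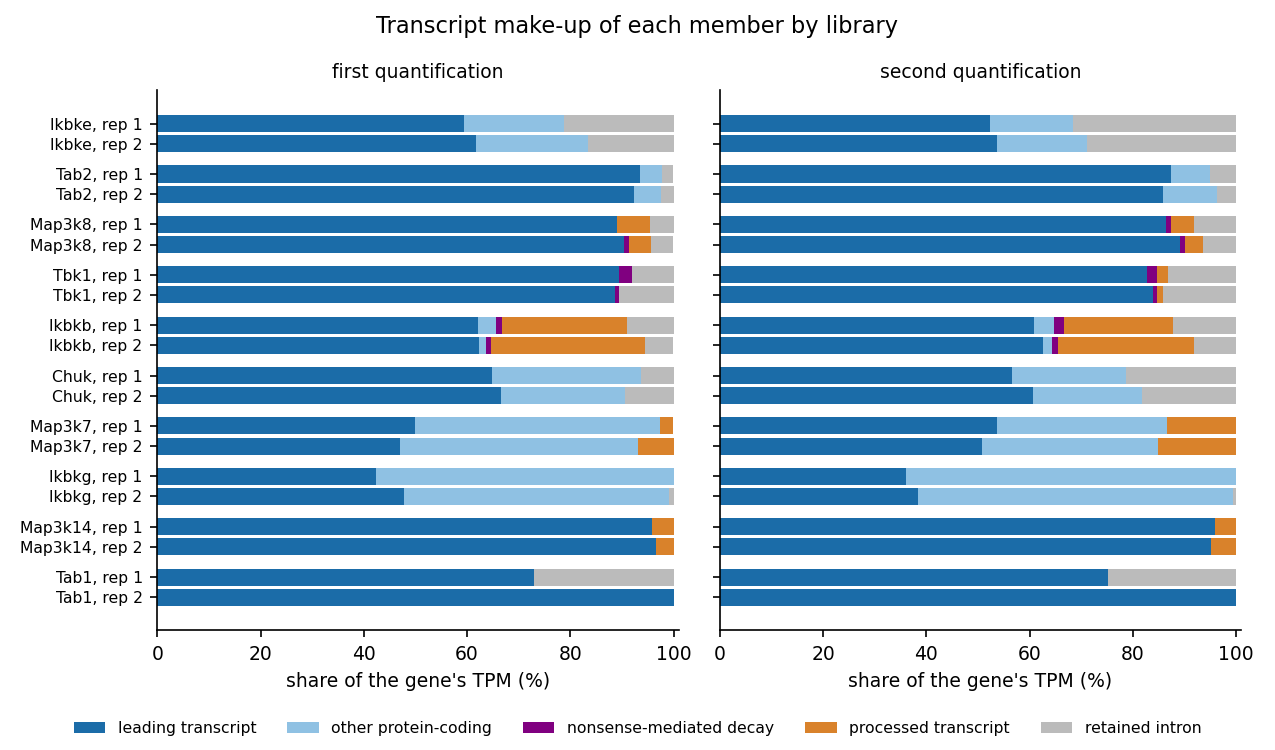
Share of each gene's TPM, in percent, in its leading transcript and in the other annotated classes, by library, with the first quantification in the left panel and the second in the right. Tbk1, Map3k8, Map3k14 and Tab2 are mostly filled by 1 transcript, Chuk, Map3k7 and Ikbkg are divided among coding transcripts, and Ikbkb has a large non-coding share. In the right panel retained-intron transcripts take 30.2% of Ikbke and 19.8% of Chuk on average.

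Between the libraries, 1 of the 10 members was apart by 2-fold or more in normalised counts, against a background of 4.00% of the 10443 genes whose mean count reached 50. That gene was Map3k14, at 2.12-fold higher in replicate 2 (log2 ratio 1.08). On the log2(TPM + 1) and log2(TPM + 0.1) scales its differences, 0.84 and 0.94, were under 2-fold and 0 members were apart. At 1.5-fold it was joined by Map3k8, at 1.58-fold higher in replicate 2 (log2 ratio 0.66), which made 2 of 10 members against a background of 14.6%. With 10 members, neither count sets them apart from other genes. The other 8 members lay between a log2 ratio of -0.25 for Ikbkg and 0.40 for Tbk1.

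With TMM scaling 7 members were higher and 3 lower in replicate 2, and on the log2(TPM + 1) scale 5 were higher and 5 lower. The median of all genes moved with the scale, from a log2 ratio of 0.03 with TMM to -0.09 with log2(TPM + 1), and the members' median was 0.11 and 0.01. Granulocyte markers, with sums of 563 and 102 TPM, and the markers Pf4 and Ppbp were higher in replicate 1. The part of these markers' cells in the members' ratios was not tested. In bulk RNA, fewer cells of a type and less RNA per cell cannot be told apart.

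The genes listed for the wider pathway, chosen with earlier results of these data known, were present almost in full. Of 72 genes in 5 lists, 69 reached 1 TPM in both libraries (95.8%). That share was 97.0% for protein-coding genes averaging 1 TPM or more and 43.6% for all protein-coding genes. At 10 TPM the lists held 58 genes (80.6%), against 8 of 10 members, 56.2% of expressed protein-coding genes and 25.2% of all protein-coding genes. The median level was 36.1 TPM for the members, 35.7 TPM for the 72 genes and 14.4 TPM for protein-coding genes averaging 1 TPM or more. None of the 71 list genes whose mean count reached 50 was apart by 2-fold between libraries by edgeR's TMM-normalised counts, against the 1 member and the 4.00% of all genes given above.

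Upstream of the kinases, 14 of 15 receptor, adaptor and ubiquitin-enzyme genes reached 10 TPM in both libraries, and the median gene stood at 33.1 TPM. Cd14, the co-receptor that hands lipopolysaccharide on, led with 1729 and 2125 TPM, followed by mean level by the ubiquitin ligase gene Peli1 at 134 and 195 TPM and by Ube2v1, a partner of the enzyme that builds the chains TAB2 binds, at 122 and 132 TPM. That enzyme's gene, Ube2n, named after its values were seen, was close behind in the mean at 143 and 111 TPM and was above both in replicate 1. Ly96, which encodes the MD-2 subunit of the Tlr4 receptor, was the gene of this list furthest apart between the libraries in TMM-normalised counts, and stood at 92.6 and 49.7 TPM. Every gene of this list reached 1 TPM in both libraries.

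Among other subunits and scaffolds of the kinase complexes, 14 of 17 genes reached 10 TPM in both, and the median gene stood at 36.9 TPM. The chaperone genes Hsp90ab1 and Cdc37, whose proteins fold IKK subunits and other kinases, stood at 477 and 374 TPM and at 116 and 118 TPM. Tank, which encodes a scaffold of TBK1 and IKKε, stood at 160 and 145 TPM, above Ikbke and Tbk1 in both libraries, but in the second quantification it was below Ikbke in replicate 1, at 142 against 148 TPM. Ripk2, which encodes the adaptor kinase of NOD receptors, was furthest apart in TMM-normalised counts, and stood at 81.7 and 124 TPM.

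The substrates stood highest of the lists, with 16 of 17 genes reaching 10 TPM in both libraries and a median level of 108 TPM. Nfkbia, which encodes IκBα, the main target of IKKβ, reached 1081 and 1048 TPM, which is far above the 52.1 to 53.4 TPM of Ikbkb. Nfkb1, the source of p105 that binds TPL2, stood at 271 and 280 TPM, and Nfkb2, the source of p100 that is processed on the order of NIK and IKKα, at 276 and 266 TPM. Rel was furthest apart in TMM-normalised counts, and stood at 43.1 and 63.1 TPM.

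All 10 brakes on the kinases reached 10 TPM in both libraries, and their median level was 48.6 TPM. Tnfaip3, which encodes the ubiquitin-editing enzyme A20, had the highest mean, at 619 and 588 TPM, and its partners Tnip3 and Tnip1 stood at 427 and 604 TPM and at 321 and 291 TPM. Tnip3 was above Tnfaip3 in replicate 2 and was the gene of the list furthest apart in TMM-normalised counts. These 3 genes exceeded every member in both libraries on the TPM scale.

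Of 13 other MAP3K genes, 4 reached 10 TPM and 10 reached 1 TPM in both libraries, and their median level was 6.20 TPM. The highest were Map3k11 at 30.3 and 32.2 TPM, Map3k3 at 28.8 and 31.6 TPM and Map3k20 at 15.1 and 16.9 TPM, and the gene furthest apart in TMM-normalised counts was Map3k15, at 0.91 and 1.29 TPM. The member Map3k8 was above all 13 in both libraries. Map3k7 lay below the 3 highest in both.

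**Figure D5:**
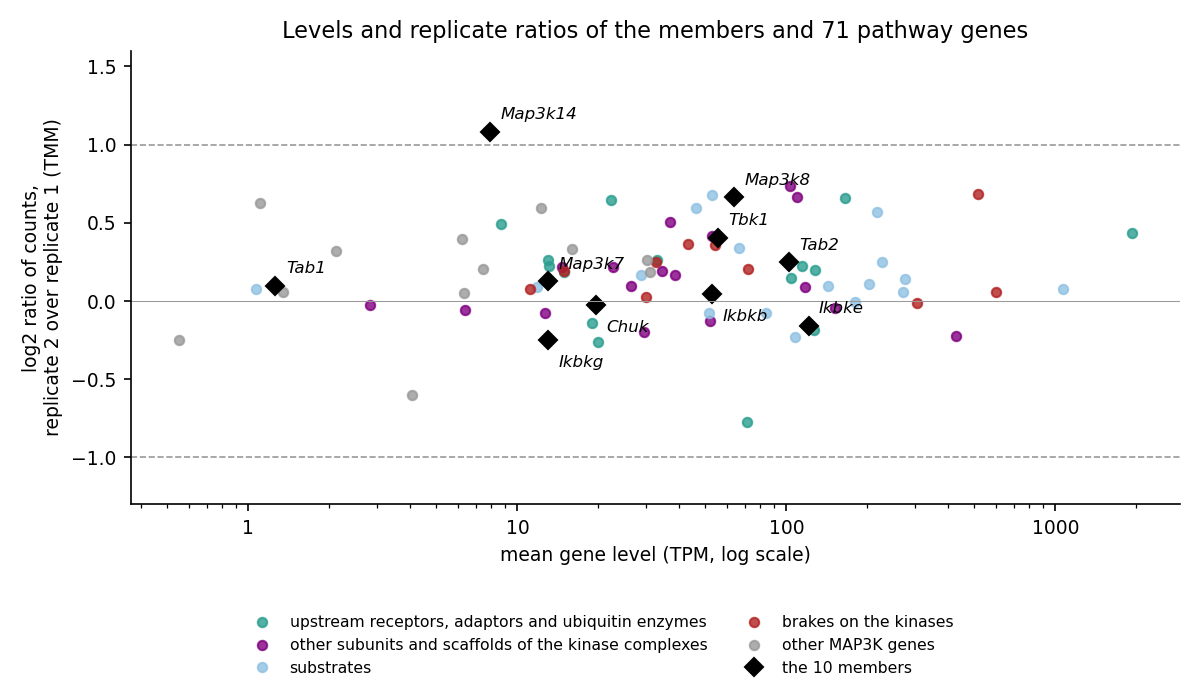
Mean gene level in TPM on a log axis against the log2 ratio of TMM-normalised counts, replicate 2 over replicate 1, for the 10 members as black diamonds and the 71 list genes whose mean count reached 50 as coloured circles. Dashed lines mark 2-fold; Map3k14 alone lies beyond them, at 1.08, and Tab1 and Map3k14 are the members below 10 TPM on average.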

How the data were processed

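Each library came with 3 tables from the authors, 1 by gene and 2 by transcript. The gene table and 1 transcript table give expected counts and TPM, and that transcript table also gives each transcript's percent of its gene, per the file headers, with columns named as RSEM names them. The other transcript table gives estimated counts and TPM per the file headers, with columns named as kallisto names them, and was summed by gene here. The labels name mm10, and the transcript identifiers matched GENCODE M21 at the same length for 80 of 80 member transcripts. Aligner, program versions, the level of the deposited intervals and the use of strand are not given in the sources used here. Those intervals are given with the deposited posterior mean TPM, so a TPM can fall outside its own, and they cover counting and read assignment in 1 library only.

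Entries that are no mouse gene held 0.141% and 0.134% of counts and were left out. Members and lists were chosen with earlier results of these data known. Expected counts were rounded to estimate normalisation factors and dispersion, and were left unrounded in the ratios. Ratios between libraries used CPM with TMM factors (edgeR 4.0.16, R 4.3.3) where the mean count reached 50, and the coefficient of variation is the square root of edgeR's common dispersion with an intercept alone. Structures, joins, translations and protein alignments (BLOSUM62) came from the GENCODE transcripts with Biopython 1.88. Python 3.11.15, numpy 2.4.6, pandas 2.3.3 and matplotlib 3.10.9 were used.

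Named beside the 10 members are, in each list, the 3 genes with the highest mean TPM and the gene furthest apart in TMM-normalised counts where the mean count reached 50, and transcripts at 5% or more of a gene's TPM in both libraries or leading in a quantification. Transcripts below that are named where their assignment differs between the libraries. Alternatives were the second quantification, posterior mean TPM, TPM without mitochondrial genes, coding transcripts alone, other TPM and count minimums, DESeq2 1.42.0 size factors, log2(TPM + 1), log2(TPM + 0.1), 1.5-fold and each replicate alone.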

Additional observations from a re-analysis of the deposited data

How the results depend on the processing

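No paired analysis was possible because the labels give 1 group. With mitochondrial genes left out of the TPM scale, the mean levels of Chuk, Ikbkb, Map3k7 and Tab2 moved by more than their SD. In the second quantification those of Ikbkb, Map3k7 and Tab2 did so, to 43.4, 12.2 and 89.0 TPM. With posterior mean TPM those of Ikbkg, Map3k7 and Tab1 did so, to 15.1, 13.4 and 1.565 TPM. The count of 8 members at 10 TPM or more was 5 at 20 TPM. The median leading share of 76.1% was 65.8% with posterior mean TPM and 95.6% among coding transcripts alone, and 68.9% to 77.6% with each replicate alone. The median coding share of 91.0% was 86.7% in the second quantification, 89.0% with posterior mean TPM and 91.6% to 91.9% with each replicate alone. Among ratios within complexes, Ikbkb to Chuk, 2.70, was 2.35 in the second quantification and 1.90 for coding transcripts alone. Ikbkg to Chuk plus Ikbkb, 0.179, was 0.210 with posterior mean TPM and 0.247 for coding transcripts alone. Map3k7 to Tab1 plus Tab2, 0.126, was 0.134 with posterior mean TPM and 0.136 in the second quantification. The single member 2-fold apart, Map3k14, dropped below 2-fold on the log2(TPM + 1) and log2(TPM + 0.1) scales, leaving 0 members, and 2 members passed 1.5-fold. The share of all genes apart, 4.00%, was 2.20% with log2(TPM + 1), 8.21% and 2.27% at mean counts of 10 and 200 or more, 30.4% with no count minimum and 14.6% at 1.5-fold. The cause of these shifts was not tested. The ratios of Ikbke to Tbk1 and Tab2 to Tab1 moved by less than their SD in every alternative run, but those SDs were large. They were 0.647 on a mean of 2.22 and 23.0 on a mean of 83.8. For a level, share or ratio averaged over 2 libraries, each replicate alone always lies within the SD of the mean. The runs with each replicate alone could therefore show no shift in those. The median shares over the members, given above, are not such means and could shift.

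Depth limits Tab1 most, with 66 and 95 counts. Shares of short transcripts rest on few reads, as for Ikbkg-209 and Tab1-203. Transcript shares depend on how reads common to several transcripts were assigned, and with 2 libraries an SD is itself poorly known.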
